A study of Mus musculus with 42 samples.

Results

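The genes described here are Grp and 8 other genes that pulmonary neuroendocrine cells express, namely Calca, Chga, Chgb, Scg2, Scg5, Resp18, Uchl1 and Syp. They were picked by gene symbol, with Grp chosen because its signal was low in exposed lungs, and the question was whether the other 8 were low in the same lungs. The 9 genes had 10 probes, 2 of them for Calca, among 55681 probes and 20018 named genes on the array. Adult male Muta™Mouse animals, a transgenic strain that carries a lacZ reporter for mutation assays, were about 11 weeks old and were gavaged for 28 days with olive oil that held benzo(k)fluoranthene (BkF), one of the polycyclic aromatic hydrocarbons. The vehicle group D0 received olive oil alone, and the daily dose in mg per kg of body weight was 25 in D1, 50 in D2 and 100 in D3. Tissue was taken 72 h after the final dose, and RNA came from a random slice of each organ. The 42 arrays came from 15 mice, not all of which had an array for every tissue. Lung gave 4, 3, 4 and 4 arrays for D0 to D3, liver 4, 2, 3 and 4, and forestomach 4, 3, 4 and 3. Each value below is the log2 ratio of the tissue's signal to that of a reference RNA pooled from mouse cell lines and hybridized to the same array, so 0 means equal signal and a level can be compared between arrays for 1 probe but not between probes.

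Pulmonary neuroendocrine cells are rare epithelial cells of the airways, single or clustered at branch points next to sensory nerve endings, that sense oxygen, stretch and inhaled substances. They store peptides such as gastrin-releasing peptide (the product of Grp) and calcitonin gene-related peptide (from Calca) in dense-core granules, whose cargo includes the granins Chga, Chgb and Scg2. Many of these genes are also active in nerves and in the endocrine cells of the stomach, so bulk tissue can carry their RNA from several sources.

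Lungs held the RNA of lung tissue on every array: Sftpc, the surfactant gene of alveolar type 2 cells, ranged from 6.50 to 7.54 and Scgb1a1, the secretory gene of club cells, from 5.70 to 7.85. Markers of other tissues stood out in some lungs. The lung of D1 mouse 7 had 9 of the 10 measured glandular stomach markers above all other lungs, with Atp4b, the acid pump subunit of parietal cells, at 4.72. Its mean glandular level was 3.02, where vehicle lungs had a mean of 0. Here and below, a mean level is the average over a list's measured genes, each centred on its vehicle mean. The lung of D1 mouse 8 was next, with a mean glandular level of 0.80 and Atp4b at 0.32, and no other lung exceeded a level of 0.37. The lung of D2 mouse 12 had 6 of 6 skeletal muscle markers above all other lungs, with Acta1 at 5.56. Lungs were spread over 4 slides that each held 1 vehicle lung, and the 4 lungs of slide 3 had fewer probes well above background (40.6% to 44.8%) than the 11 others (52.3% to 59.9%). Dose ran with the array position on the slide, so position and dose cannot be told apart. Target genes of the aryl hydrocarbon receptor, to which BkF binds, had higher means in exposed lungs. At D3, 4 of 5 (Cyp1a1, Cyp1b1, Ahrr and Tiparp) passed limma's test and Nqo1 did not. At D1 0 of 5 and at D2 3 of 5 passed. Of all probes, 0%, 0.0153% and 0.0336% passed at D1, D2 and D3.

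Among the 9 genes, only Grp separated vehicle from exposed lungs. It encodes gastrin-releasing peptide, the bombesin-like peptide of pulmonary neuroendocrine cells. Its log2 ratio was 2.78, 2.13, 2.76 and 1.46 in the vehicle lungs of mice 1, 2, 3 and 4. It was 0.33, 0.41 and 0.93 at D1 (mice 7, 8 and 9), 0.37, 0.20, 0.23 and 0.66 at D2 (mice 11, 12, 13 and 15), and 0.12, 0.46, 0.67 and 0.0071 at D3 (mice 16, 17, 19 and 20). All 11 exposed lungs lay below all 4 vehicle lungs, and the lowest vehicle lung, mouse 4, was on slide 3. Means were 2.28 ± 0.63 (SD, n = 4), 0.56 ± 0.33 (n = 3), 0.36 ± 0.21 (n = 4) and 0.31 ± 0.31 (n = 4), so the differences from vehicle were -1.73, -1.92 and -1.97, with the 3 exposed groups closer to each other than their own spread. No test is given for Grp in lung, since these values chose it. Of the 32696 probes tested in lung, 51 (0.156%) separated the 11 exposed from the 4 vehicle lungs downward in this way. Grp was well above background in 4 of 4 vehicle lungs and in 1 lung of each exposed group, so the size of the difference depends on how background is treated: at D3 it was -1.97 without background subtraction and -4.74 with the scanner software's own background-subtracted ratios.

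**Figure D1:**
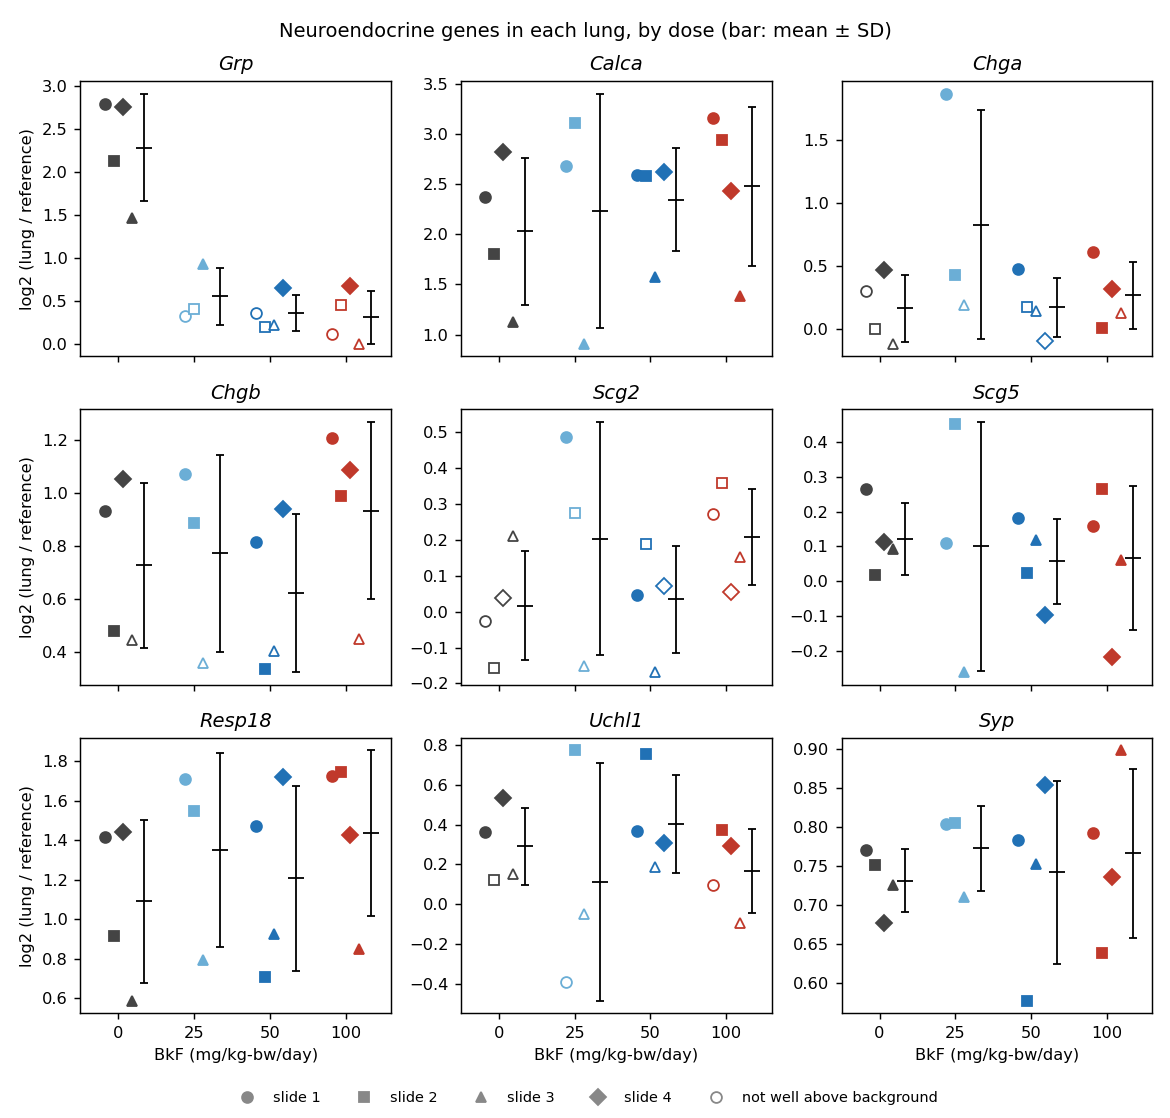
Log2 ratio of lung to reference (vertical axis, its own range for each gene) for each of the 15 lungs by dose group (D0 to D3, with the daily dose in mg per kg of body weight), with marker shape for the slide, open markers where the spot was not well above background, and bars for mean ± SD. All 11 exposed lungs lie below the 4 vehicle lungs for Grp, and the groups overlap for the other 8 genes.

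The second neuropeptide gene, Calca, had no such pattern. It encodes calcitonin and calcitonin gene-related peptide. Its brighter probe read 2.37, 1.80, 2.82 and 1.12 in vehicle lungs and 3.16, 2.94, 2.43 and 1.38 at D3, all well above background. The D1 lungs read 2.68, 3.11 and 0.91 and the D2 lungs 2.60, 2.58, 1.57 and 2.63. The lowest lung of each group (mice 4, 9, 13 and 20) was the one on slide 3, and the groups overlapped. The D3 difference was 0.45 ± 0.50 (SE), with a 95% confidence interval of -0.61 to 1.51 and an adjusted p of 0.893 by limma. It was 0.15 without vehicle mouse 4 and 0.82 without D3 mouse 20, the lungs on slide 3. The second Calca probe gave 0.20 at D3 but -0.22 at D1 and -0.37 at D2, where the first gave 0.21 and 0.31, so the probes differed in sign at both lower doses. The lowest bound of any of these intervals was -1.19, that of the second probe at D2.

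The granins, acidic proteins that pack peptides into dense-core granules, were not well above background in every lung. Chga read 0.30, -0.00057, 0.46 and -0.12 in vehicle lungs and 0.61, 0.0056, 0.32 and 0.12 at D3, with 7 of 15 lungs well above background. The highest Chga value of all lungs, 1.87, was that of D1 mouse 7, the lung with glandular stomach markers, and the other D1 lungs read 0.42 and 0.19. The D1 difference of 0.67 ± 0.31 (SE, unadjusted p = 0.0483, adjusted p = 1.00 by limma) became 0.14 ± 0.21 when that lung and the D2 lung with muscle markers were left out. Chgb read 0.93, 0.48, 1.05 and 0.45 in vehicle lungs and 1.21, 0.99, 1.09 and 0.45 at D3, a difference of 0.21 ± 0.21 (SE, adjusted p = 0.881). At D1 Chgb read 1.07, 0.89 and 0.36 and at D2 0.81, 0.34, 0.40 and 0.94, inside or just outside the range of the vehicle lungs. Scg2 was well above background in 2 of 15 lungs, ranged from -0.17 to 0.49 and was not tested in lung.

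The promoters of these granin genes are shown because they carry letters known from the control of neuroendocrine genes and from the receptor that BkF binds, and because the 3 genes varied widely between forestomachs. Of the 9 genes, 8 had an entry in the RefSeq promoter table (GRCm38.p6), all but Grp. The 250 bases before the start of each gene were searched on both strands for TGACGTCA, the site of cAMP-responsive factors, and for GCGTG, the core of the site of the aryl hydrocarbon receptor. TGACGTCA was found in Chgb, with its first base at position -72 from the start, and in Scg2, at -68, and in 1.55% of all 32851 promoters in the table. GCGTG was found in Chga, at -18, -12 and -8, and in Scg2, at -60, directly after TGACGTCA without overlap, and in 28.2% of all promoters. Neither was found in Calca, Scg5, Resp18, Uchl1 or Syp. Only exact matches were counted, so the near match TGACGTAA in the Chga sequence below was not among them. The sequences run 5′ to 3′ on the strand of the gene, with capitals for TGACGTCA in Chgb and Scg2 and for GCGTG in Chga.
Chgb, chr2:132781392-132781641, plus strand: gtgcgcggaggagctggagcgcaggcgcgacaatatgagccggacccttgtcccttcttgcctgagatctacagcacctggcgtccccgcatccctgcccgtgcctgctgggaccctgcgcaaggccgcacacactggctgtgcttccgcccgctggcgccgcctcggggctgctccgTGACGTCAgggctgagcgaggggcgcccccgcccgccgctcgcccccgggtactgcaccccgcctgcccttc
Scg2, chr1:79440027-79440276, minus strand: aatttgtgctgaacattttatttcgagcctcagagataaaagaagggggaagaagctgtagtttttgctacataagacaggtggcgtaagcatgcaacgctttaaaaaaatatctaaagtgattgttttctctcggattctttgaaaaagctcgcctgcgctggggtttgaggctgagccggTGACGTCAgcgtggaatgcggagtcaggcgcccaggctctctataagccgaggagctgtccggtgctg
Chga, chr12:102554691-102554940, plus strand: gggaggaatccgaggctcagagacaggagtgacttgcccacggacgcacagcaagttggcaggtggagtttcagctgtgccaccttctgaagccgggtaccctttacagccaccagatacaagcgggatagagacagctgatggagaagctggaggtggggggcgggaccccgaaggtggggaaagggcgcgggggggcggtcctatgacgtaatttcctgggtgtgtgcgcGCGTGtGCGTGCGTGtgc

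The remaining secretory pathway genes also overlapped between groups. Scg5, which encodes the chaperone 7B2 of prohormone convertase 2, ranged from -0.26 to 0.45 over all lungs and differed at D3 by -0.05 ± 0.14 (SE, adjusted p = 0.965). Resp18, a granule protein gene of endocrine cells, read 1.42, 0.92, 1.44 and 0.59 in vehicle lungs and 1.72, 1.75, 1.43 and 0.85 at D3. Its D3 difference was 0.35 ± 0.28 (SE, adjusted p = 0.83), and 2 of the 4 D3 lungs lay above the highest vehicle lung. It read 1.71, 1.55 and 0.79 at D1 and 1.47, 0.71, 0.93 and 1.72 at D2. The 2 lowest vehicle lungs for Resp18 were mice 2 and 4, and the lowest D3 lung, mouse 20, was on slide 3.

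The pan-neuroendocrine and neuronal genes Uchl1 and Syp overlapped between groups as well. Uchl1, a deubiquitinase abundant in neurons and neuroendocrine cells, read 0.36, 0.12, 0.53 and 0.15 in vehicle lungs and 0.10, 0.38, 0.29 and -0.10 at D3 (-0.12 ± 0.21, SE, adjusted p = 0.942). With the scanner software's background-subtracted ratios the difference was -0.66 ± 0.73 (SE, adjusted p = 0.821). The other D1 lungs read 0.77 and -0.05 and the D2 lungs 0.37, 0.75, 0.19 and 0.31. The lowest Uchl1 value, -0.39, came from D1 mouse 7, with 8 of 15 lungs well above background. Syp, the synaptic vesicle protein synaptophysin, was measured most tightly, with 0.77, 0.75, 0.68 and 0.73 in vehicle lungs and 0.79, 0.64, 0.74 and 0.90 at D3. Its D3 difference was 0.03 ± 0.09 (SE), with a 95% confidence interval of -0.15 to 0.22.

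Apart from Grp, 7 of the other 8 genes passed the filter on dim probes in lung, and none was called at an adjusted p of 0.05 or less and a fold change of 1.5 or more. At D1, D2 and D3 limma called 0 of 7, where 0%, 0.0153% and 0.0336% of all probes were called. At an unadjusted p below 0.05 there was 1 of 7 at D1, the Chga value above, and there were 0 at D2 and D3, where 580, 1391 and 2617 of all 32696 probes were. At D3, 5 of the 7 differences were above 0 and 2 below, with a median of 0.10 against 0.0043 over all probes. A linear trend over the dose range called 0 of 7, against 0.0336% of all probes, with changes from -0.08 (Chga) to 0.43 (Calca) between 0 and 100 mg/kg-bw/day. RNA of a rare cell type in bulk lung can be low because there are fewer such cells or because each holds less RNA, and these cannot be told apart here.

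Comparing each exposed lung with the vehicle lung of its own slide takes the slide out of the difference. The 11 pairs share 4 vehicle lungs. For Grp the sign was fixed beforehand, since all exposed lungs lay below all vehicle lungs, so its values are a description. All 11 Grp differences were below 0, from -2.67 to -0.53 with a median of -1.93, and 10 of 11 reached 1.5-fold. On slide 1 they were -2.45, -2.41 and -2.67 for D1, D2 and D3. On slide 3, the dimmest, they were -0.53, -1.23 and -1.45. The medians of the other genes lay between -0.20 for Uchl1 and 0.31 for the brighter Calca probe. A reduction of 1.5-fold or more was found for Uchl1 in 1 of 11 pairs and for the second Calca probe in 2 of 11, and for no other probe of the 8 genes. An increase of that size was found in 4 pairs for the brighter Calca probe, in 2 each for the second Calca probe, Resp18 and Uchl1, and in 1 for Chga.

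**Figure D2:**
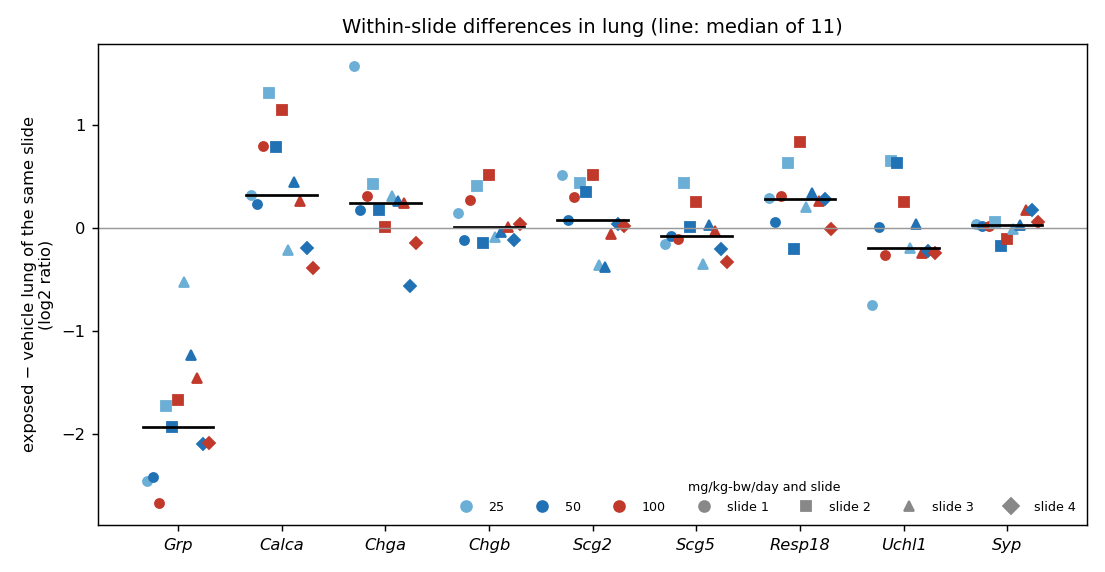
Difference in log2 ratio between each of the 11 exposed lungs and the vehicle lung on the same slide (vertical axis), by gene, with color for dose, marker shape for slide and a line at the median. Grp is below 0 on all 4 slides, which its separation of exposed from vehicle lungs fixes, with a median of -1.93. The medians of the other genes lie between -0.20 and 0.31.

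A wider list of 30 neuroendocrine genes included transcription factors that specify these cells, enzymes that cut and trim their prohormones, amine transporters and vesicle proteins. Of these, 24 passed the filter in lung, and limma called 0 at D3 in either direction, where 0.0336% of all probes were called. An unadjusted p below 0.05 was found for 2617 of all 32696 probes and for 0 of the 24 genes. With so few probes called, 0 of 24 does not set this list apart from other probes. The median difference was 0.06, against 0.0043 over all probes, with 16 genes above 0 and 8 below and a range of -0.22 to 0.36. The 4 largest by size were Cpe, a carboxypeptidase that trims prohormones (0.36), Cplx2, a regulator of vesicle fusion (0.31), Slc18a1, the vesicular amine transporter of endocrine cells (0.30), and Bex2 (0.27). Their adjusted p ran from 0.733 to 0.892. The lung of D3 mouse 20, on slide 3, was the highest of all lungs for 8 of the 24 genes. It read 2.85 for Cplx2, where the other D3 lungs read 1.56 to 1.74 and vehicle lungs 1.30 to 2.03. The 4 Cplx2 probes disagreed at D3, with -0.41 for one and 0.31 to 0.48 for the others.

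The second list held 12 genes of peptide processing and of the receptors for these peptides, 9 of which passed the filter. limma called 0 of 9 at D3, where 0.0336% of all probes were called, and the median difference was -0.10. An unadjusted p below 0.05 was found for 2617 of all 32696 probes and for 1 of the 9 genes. That gene was Ramp3, which encodes a partner protein that turns the calcitonin receptor-like receptor toward adrenomedullin and related peptides. It read -0.45, 0.17, -0.51 and -0.11 in vehicle lungs, 0.67, 0.76 and 0.54 at D1, 1.47, 0.76, 0.25 and 0.29 at D2, and 0.65, 1.00, 0.21 and 0.73 at D3. All 11 exposed lungs lay above all 4 vehicle lungs, as did 0.150% of all probes, and the differences were 0.88, 0.92 and 0.87. The adjusted p was 0.375 at D3 and 0.686 at D2, so Ramp3 did not pass. Ramp1, the partner for calcitonin gene-related peptide, gave -0.41, the receptor Calcrl -0.33 and the peptidase Mme -0.27, all with adjusted p of 0.689 or more. For each of these 3 the lowest D3 lung was mouse 20, on slide 3: Ramp1 read 1.20 there against 2.10 to 2.31 in the other D3 lungs, Calcrl 1.72 against 3.65 to 3.96, and Mme 1.45 against 2.85 to 3.59. The other D3 lungs lay within or above the range of the vehicle lungs for all 3 genes, and 4 of the 9 genes of the list were lowest in that lung. The other Ramp1 probes gave -0.12 and 0.06.

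**Figure D3:**
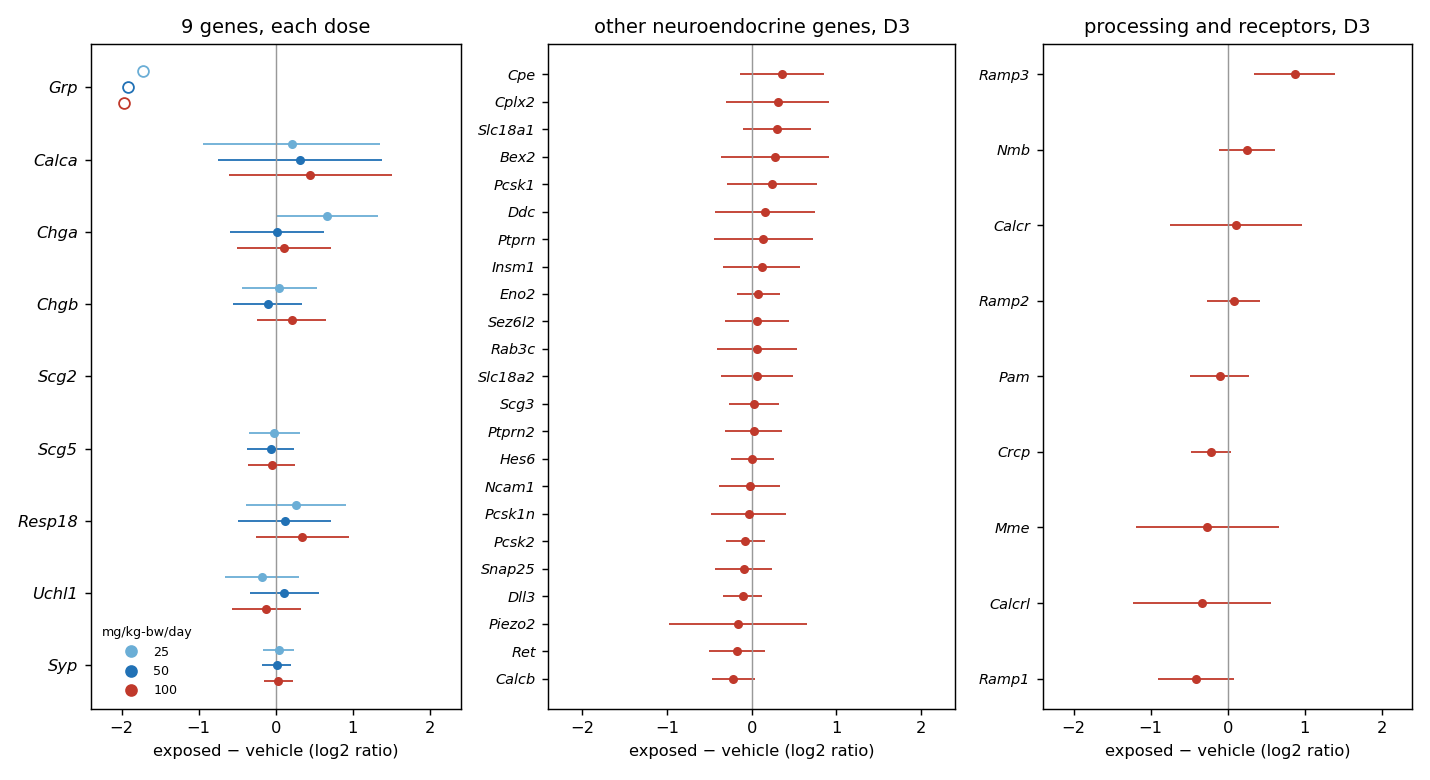
Difference in log2 ratio between exposed and vehicle lungs (horizontal axis) with 95% confidence intervals, for the 9 genes at each dose (left; Grp as open points with no interval, and Scg2 was not tested), for the other neuroendocrine genes at D3 (middle, with 1 of the 24 not shown) and for 9 processing and receptor genes at D3 (right). Grp lies at -1.73 to -1.97, and the interval of Ramp3 at D3 runs from 0.35 to 1.40.

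Markers of other cell types in the lung slices were examined in the same arrays. Of all probes, 0%, 0.0153% and 0.0336% were called in lung at D1, D2 and D3. Of 12 airway epithelial markers, 12 were above 0 at D3 with a median of 0.36, and 0 were called. At D1 8 were above 0 and 4 below, with a median of 0.19, and at D2 4 were above 0 and 8 below, with a median of -0.13. The mean airway level ran from -0.47 to 0.46 in vehicle lungs and from 0.20 to 1.24 at D3, and Scgb1a1 differed by 0.41. Of 12 alveolar markers 4, 2 and 8 were above 0 at D1, D2 and D3, with medians of -0.04, -0.14 and 0.10. The D2 lung of mouse 12, with muscle markers, was the lowest of all lungs for 8 of the 12 airway and 6 of the 12 alveolar markers. Of 13 nerve markers 9 were above 0 at D3, with a median of 0.01. Their mean levels were -0.07 to 0.09 in vehicle and -0.03 to 0.11 in D3 lungs. Of 6 skeletal muscle markers 6 were above 0 at D2, with a median of 1.496, where the lung of mouse 12 had a mean level of 5.56. Of the cardiac muscle markers 7 of 7 were above 0 at D1, D2 and D3, with medians of 2.05, 0.64 and 1.44 and 0 called. Their mean level ran from -1.18 to 1.68 in vehicle lungs and from 0.49 to 2.53 at D3. Myh6 was well above background in 15 of 15 lungs. In vehicle lungs Myh6 read 3.43, 5.61, 0.54 and 4.88 for mice 1 to 4, so the range of vehicle lungs was wide. The part of cardiac and airway RNA in the Grp difference was not tested. Without the lungs of D1 mouse 7 and D2 mouse 12 the Grp differences were -1.61, -1.86 and -1.97, and limma again called 0 of the other 7 genes.

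Profiles over the 15 lungs were set beside that of Grp as a description, since the low Grp values in exposed lungs fix what a like profile looks like. Likeness was the mean absolute difference between 2 probes over the 15 lungs after each was centred on its own mean, so that smaller is more alike. A probe with no variation at all would score 0.741, Grp's own mean absolute deviation, and the median over all probes was 0.755, so a gene with the same shape and a much smaller range cannot score well. The 5 closest named genes were Slc5a12, a lactate transporter (0.336), Klra16 (0.363), Klra8 (0.394), Wnt10b, a Wnt ligand (0.409), and Klra7 (0.416), at ranks 1, 3, 6, 9 and 10 of 32695 probes. The Klra genes encode Ly49 receptors of natural killer cells and are close copies of each other, so their probes may share signal. Klra16 was well above background in 15 of 15 lungs, Wnt10b in 13, Klra7 in 8, and Slc5a12 and Klra8 in 7. The 7 other tested neuroendocrine genes scored from 0.757 (Syp) to 1.06 (Calca), no closer than a flat profile.

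Vehicle mice gave the levels of the 9 genes in the 3 tissues without exposure. Grp read 1.96, 6.14, 5.73 and 3.31 in the forestomachs of mice 1, 2, 3 and 4, all well above background. In the livers of the same mice it read -0.08, 0.16, 0.19 and -0.18, with none of 13 livers well above background. Its order was thus forestomach, lung and liver by mean (4.28 ± 1.99, 2.28 ± 0.63 and 0.02 ± 0.18, SD, n = 4 each), where lung and forestomach overlapped and lung and liver did not. Grp signal in vehicle lung was at least 2.85-fold that in vehicle liver, a bound set by the dimmest measurable signal on the liver arrays.

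Calca was measured in 15 of 15 lungs and rarely elsewhere. It was well above background in none of 14 forestomachs, and in 1 of 13 livers with 1 of its 2 probes. In vehicle lung it was at least 2.44-fold higher than in vehicle liver and at least 2.17-fold higher than in vehicle forestomach. The mean log2 ratios were 2.03 in lung, and -0.12 in liver and 0.02 in forestomach, where no vehicle array was well above background. Resp18 was at least 1.63-fold higher in lung than in liver. Calca, Resp18, Chgb, Scg5 and Uchl1 passed the filter through lung and not through liver, which fixes the direction of a call for them, so their values are given as a description. Of all probes 40.8% were called between the tissues, 23.4% as higher and 17.4% as lower in lung. Syp, measured on all vehicle arrays of both tissues, differed by 0.06 ± 0.15 (SE, adjusted p = 0.768). Chga was well above background in 1 of 4 vehicle lungs and in none of 4 vehicle livers, so no difference could be measured. Liver arrays were on slides of their own and read with another version of the scanner software, so tissue and slide cannot be told apart there.

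Between vehicle lung and vehicle forestomach limma called 33.5% of all probes, 18.4% as higher and 15.1% as lower in lung. Of the 6 genes that passed the filter in both tissues, 4 were called, all lower in lung. The difference of lung minus forestomach was -3.77 ± 0.55 (SE) for Chga, -2.04 ± 0.84 for Chgb, -1.66 ± 0.37 for Scg5 and -0.93 ± 0.33 for Uchl1. Vehicle lung measured Chga on 1 of 4 arrays, Uchl1 on 2 and Chgb on 3, so the sizes of these differences depend on background. Resp18 (-0.57 ± 0.37) and Syp (-0.35 ± 0.15) were not called. These SEs rest on a spread shared by all tissues and doses, although vehicle arrays differed in spread between tissues. For Chgb the SD was 2.17 in vehicle forestomach and 0.31 in vehicle lung. Scg2, not above background in vehicle lung, was at least 3.63-fold higher in forestomach, where 3 of 4 vehicle arrays measured it. Scg2 passed the filter in forestomach alone and Calca in lung alone, so both are descriptions. The vehicle forestomachs of mice 2 and 3 held glandular stomach markers, with mean levels of 2.77 and 2.71 against -2.86 and -2.61 in mice 1 and 4. Without mice 2 and 3, and the other forestomachs with these markers, Chgb, Scg5 and Uchl1 were no longer called and Chga was. Chgb (adjusted p = 0.0423) and Uchl1 (adjusted p = 0.0195) were also lost when the forestomach of mouse 2 or of mouse 3 alone was left out, and Chgb when any 1 vehicle lung was.

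**Figure D4:**
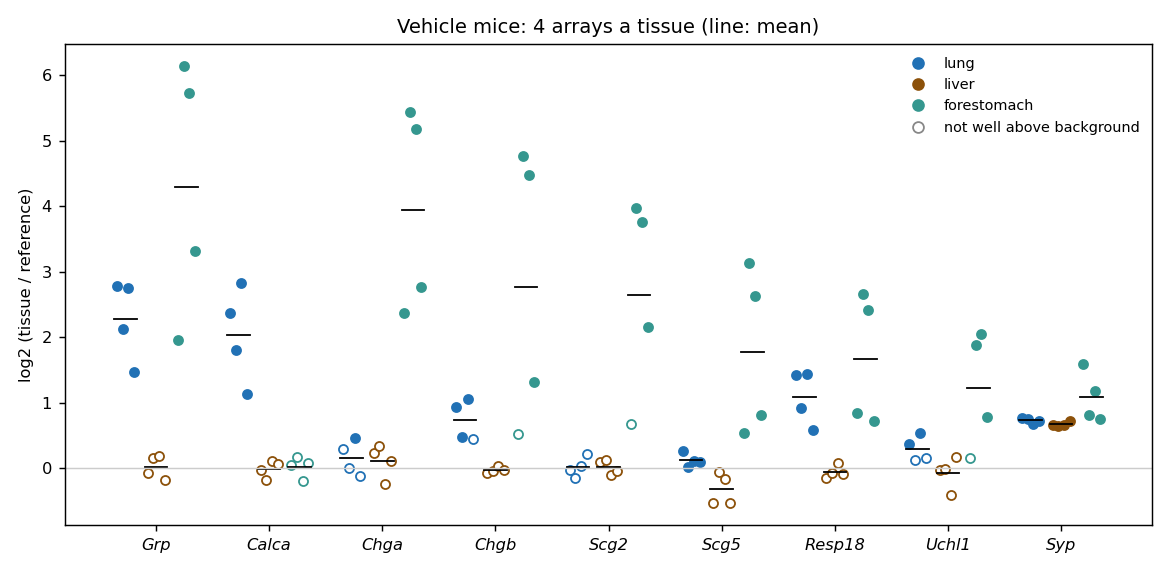
Log2 ratio to reference (vertical axis) of the 9 genes in lung, liver and forestomach of the 4 vehicle mice, with open markers where the spot was not well above background and a line at the mean. Calca is high in lung alone, and in forestomach mice 2 and 3 lie above mice 1 and 4 for Grp, Chga, Chgb, Scg2 and Scg5.

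The forestomach arrays were not alike. The forestomach of the mouse is lined by squamous epithelium without acid-secreting glands, yet Atp4b was well above background in 9 of 14 forestomach arrays, at 5.41 to 6.26. In the other 5, mice 1 and 4 of D0, mouse 11 of D2 and mice 16 and 20 of D3, it read -0.08 to 0.47. All 12 glandular stomach markers entered a mean level. It ran from -2.86 to -1.92 in those 5 arrays and from 1.86 to 3.08 in the other 9. The arrays without Atp4b were 2 of 4 at D0, 0 of 3 at D1, 1 of 4 at D2 and 2 of 3 at D3.

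Chga and Chgb, which endocrine cells of the gastric glands express, were high where glandular markers were high. Chga ranged from 5.12 to 5.80 in 8 of the 9 arrays with Atp4b, with 3.57 in D2 mouse 13, and from 2.14 to 3.75 in the 5 without. Chgb ranged from 3.15 to 6.97 in the 9 and from 0.30 to 2.66 in the 5. Grp and Scg2, which nerves of the gut wall also express, spread widely in both sets. Grp was low in 3 of the 5 arrays without Atp4b, at 1.72, 1.96 and 3.31, and it was high in vehicle mice 2 and 3 with Atp4b, at 6.14 and 5.73. It was also 5.26 in D3 mouse 16 and 4.57 in D2 mouse 11, both without Atp4b, and 3.25 in D2 mouse 12, which had the highest Chga and Chgb of all forestomachs. Scg2 was 3.78, 2.86 and 1.24 in the same arrays. The mean level of 13 nerve markers was 0.40, 0.25 and -0.62 there, and their part in the Grp and Scg2 values was not tested.

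**Figure D5:**
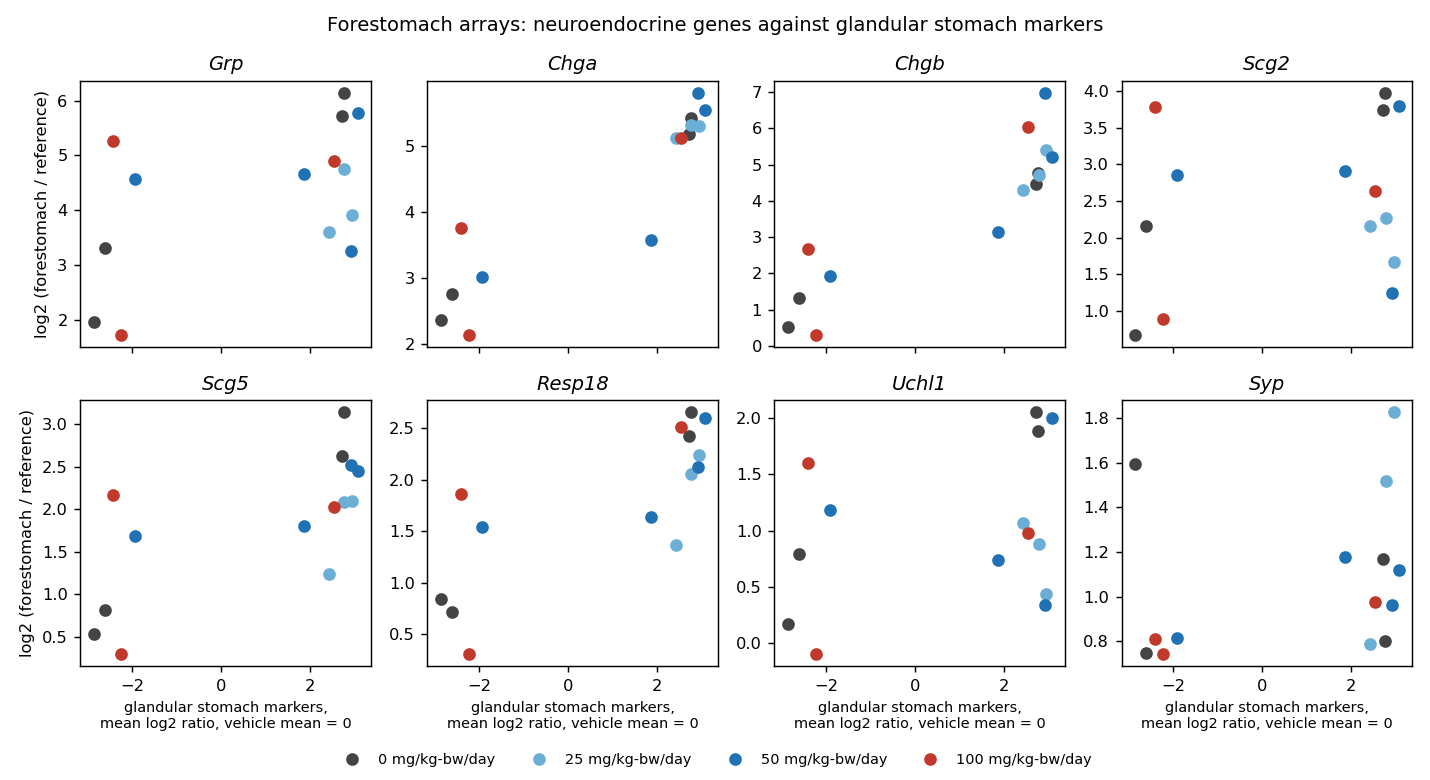
Log2 ratio to reference in each of the 14 forestomachs (vertical axis) against the mean log2 ratio of 12 glandular stomach markers with the vehicle mean at 0 (horizontal axis), by gene, with color for dose. The arrays fall into 5 with low and 9 with high glandular markers, Chgb does not overlap between the 2 sets, Chga overlaps through 1 array with high glandular markers (3.57), and Grp and Scg2 overlap more widely.

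No difference in Grp between exposed and vehicle forestomachs passed the test. Group means were 4.28 ± 1.99, 4.09 ± 0.59, 4.57 ± 1.04 and 3.96 ± 1.95 (SD, n = 4, 3, 4 and 3), and the D3 difference was -0.33 ± 1.03 (SE), with a 95% confidence interval of -2.56 to 1.91 that holds the size of the lung difference. At D1, D2 and D3 limma called 0 of the 8 genes that passed the filter, where 0%, 0% and 0% of all probes were called, and 0 of 8 had an unadjusted p below 0.05, where 3069, 1922 and 561 of 25302 probes had. The direction of the Grp difference depended on which arrays entered. Among arrays with Atp4b it was -1.85 at D1 (adjusted p = 0.321), -1.37 at D2 and -1.04 at D3, with Scg2 at -1.83, -1.21 and -1.23. Scg5 (-1.07) and Uchl1 (-1.18) were also lower at D1 in that set, while Chgb (0.19) and Syp (0.39) were above 0. The unadjusted p by limma at D1 was 0.019 for Grp, 0.016 for Scg2, 0.011 for Scg5 and 0.026 for Uchl1. Among arrays without Atp4b the Grp difference was 1.93 at D2 and 0.86 at D3. The lowest adjusted p of the 8 genes was 0.282 in the first set and 0.999 in the second. Over all probes limma called 31, 1 and 1 at D1, D2 and D3 in the first set and 0 at D2 and D3 in the second. These sets held 1 to 3 exposed and 2 vehicle forestomachs each, were defined after the values were seen, and the fits assume that a lone array varies like the others.

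In liver, 2 of the 9 genes passed the filter, Syp and Chga. Syp, well above background in 13 of 13 livers, read 0.66, 0.65, 0.66 and 0.72 in vehicle livers and 0.63, 0.39, 0.65 and 0.52 at D3 (-0.13 ± 0.10, SE, adjusted p = 0.813). limma called it at no dose, where 0%, 0.0427% and 0.0525% of all probes were called at D1, D2 and D3. Chga was well above background in 2 of 3 D2 livers and in none of the other groups, so its differences at D1 and D3 lie between arrays without measurable signal.

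The difference between tissues in the D3 effect was tested directly. For Syp, the one gene measured in D0 and D3 arrays of both lung and liver, it was 0.16 ± 0.21 (SE, adjusted p = 1.00), where 0.0153% of all probes were called. Between lung and forestomach limma called 0 of 6 genes, where 0.0122% of all probes were called, with 0 of 6 and 1123 of 24501 probes at an unadjusted p below 0.05. The widest interval was that of Chgb, -2.54 to 2.47. For Grp the lung effect minus the forestomach effect was -1.64, given as a description with no test.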

How the data were processed

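Two-colour Agilent mouse arrays held tissue RNA in Cy5 and a universal mouse reference in Cy3, with no dye swap. Feature Extraction (10.7.3.1 for lung and forestomach, 11.0.1.1 for liver, per the file headers) gave the deposited spot intensity values, log10 ratios and background flags. The authors deposited a table of LOWESS-normalized log2 ratios, which matched the scanner values in lung and forestomach by probe but not in liver and was used as an alternative for the first 2 tissues. From the median intensities the log2 ratio was computed without background subtraction, with loess within each array in limma 3.58.1 (R 4.3.3). Control spots had weight 0, outlier spots were left out and spots of a probe averaged. Dim probes were left out of a tissue unless 3 lung, 2 liver or 3 forestomach arrays, the size of its smallest group, had them well above background. This kept 32696, 30453 and 25302 probes. Of all probes, 47.4% had a gene symbol through RefSeq accessions.

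Differences were tested with limma's moderated test, fitted once per tissue over D0 to D3, or over all 12 groups for comparisons between tissues, and Benjamini-Hochberg adjustment over all kept probes. The authors used a shrunken F test with residual shuffling. Where a gene had several probes the one with the highest mean signal was its main probe. The members and lists were chosen with earlier results of these data known, so no test is given for Grp in lung. All members are named, with the 4 genes of each further list that had the largest D3 difference and the 5 named genes most like Grp. The values of 1 gene of these lists are not reported here. The fits were tested on simulated data. Arrays give no read depth, and precision is limited by their number. Tissue pairs came from the same mice. Deviations from group means correlated between lung and liver of a mouse by -0.20 to 0.19 (13 mice) and between lung and forestomach by -0.03 to 0.38 (14 mice). Alternatives were other background corrections and normalizations, no filter, slide as a block, mouse as a block, 2 groups alone, and leaving out each array. Leaving out slide 3, the lungs with other tissues' markers or the forestomachs with or without Atp4b was chosen after seeing the data. Within a tissue, p-values measure the spread between mice over its dose groups. Fits over all 12 groups give each probe 1 spread shared by the 3 tissues. Their SEs and p-values are thus not set by the spread of the 2 groups compared.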

Additional observations from a re-analysis of the deposited data

Results flagged for a closer look

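In 44 sets of 4 arrays (a gene with a kept probe, in 1 tissue and dose group) 1 array lay apart from the other 3 by Dixon's criterion, which chance alone reaches in about 1 of 20 sets. It was Calca in the lung of D2 mouse 13, at 1.57 where the other D2 lungs read 2.58 to 2.63. This lung was on slide 3, the slide with fewer probes well above background.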

How the results depend on the processing

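The dose groups of a tissue share no mouse, so mouse could not be a block there, and slide as a block left the count of genes called at each dose at 0. Between tissues, mouse as a replicate block left the counts as they were: 2 genes called for the level of vehicle lung against liver, 6 against forestomach, and 0 for the D3 effect against either. Both genes called against liver, Calca and Resp18, passed the filter through lung and not through liver. Calca and Scg2, among the 6 called against forestomach, also passed in 1 tissue only. The filter fixes the direction of such calls, so they are descriptions and their stability supports nothing further. Of all probes, 40.8% were called for the level against liver and 33.5% against forestomach. No count of genes called between doses changed from 0 in lung, liver or forestomach under any alternative, with 0 to 0 when single arrays were left out. The 2 genes called between vehicle lung and liver became 4 (Chgb and Scg5 added) with the scanner software's ratios and stayed at 2 to 2 without single arrays. All 4 passed the filter through lung and not through liver, so these counts are a description. The 6 called between vehicle lung and forestomach became 3 (Calca, Chga and Scg2) without the forestomachs that held Atp4b, 7 (Resp18 added) without those that lacked it, and were 4 to 6 without single arrays. The cause was not tested.

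The Grp difference at D3 in lung was -4.74 with the scanner software's ratios, -1.65 with normexp background correction, -1.89 with the authors' ratios, and -2.24 to -1.80 without single arrays. Uchl1 moved from -0.12 to -0.66 with the scanner software's ratios, and Calca spanned 0.15 to 0.82 without single arrays, neither passing the test. Small differences of other genes turned sign without passing it. Resp18 was -0.10 with the scanner software's ratios. Syp was -0.011 without slide 3 and -0.0092 to 0.077 without single arrays. Chga spanned -0.011 to 0.21 and Scg5 -0.12 to 0.040 without single arrays. Signal over background limits Grp in exposed lungs, Scg2 and Chga in lung, and most of the 9 genes in liver.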

Other observations

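Beside Grp, 7 probes had all 11 exposed lungs below all 4 vehicle lungs with a mean at least 1 log2 unit lower. The named ones were Gzma (-2.25), Ccl5 (-1.49), Klra16 (-1.42) and Thbs3 (-1.02), as differences of exposed from vehicle means, and 3 had no gene name here. Gzma encodes a granule protease of cytotoxic lymphocytes, Ccl5 a chemokine that such cells release, and Klra16 a receptor of natural killer cells. These genes were named after their values were seen, and no test is given for them.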
